A study of Arabidopsis thaliana with 2 samples.

Results

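The genes described here are 36 nuclear genes of Arabidopsis thaliana that encode subunits of the photosynthetic machinery of the thylakoid membrane, out of 27444 nuclear protein-coding genes. They were taken from a fixed list of loci by function. The rule uses no measured value, but the list was drawn up with earlier results of these data known. There are 13 genes of photosystem I, 13 of photosystem II, and 10 for other parts of the electron transport chain and for the ATP synthase. The last 10 are PETC of the cytochrome b6f complex, 2 plastocyanin genes, 2 ferredoxin genes, 2 genes for ferredoxin-NADP reductase (FNR) and 3 genes for the chloroplast ATP synthase.

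Light drives electrons from water through photosystem II, the cytochrome complex, plastocyanin and photosystem I to ferredoxin, and FNR passes them on to NADP. The proton gradient built up on the way drives the ATP synthase. Part of each complex is encoded in the chloroplast and part in the nucleus, and the nuclear genes are well known for their response to light and for daily rhythms of expression. LHY is a MYB-type transcription factor of the plant circadian clock that is most abundant around dawn.

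LHY-bound DNA was isolated by chromatin immunoprecipitation and sequenced (ChIP-seq), with an antiserum against the full-length protein. The material was whole seedlings of the Ws ecotype, 2 weeks old, collected 2 h after dawn and cross-linked with 1% formaldehyde for 10 min. The wild type gave 1 library, and lhy-21, a knock-out of LHY in the same background, gave the other and served as the control for the antiserum. Each library was made from 9 pooled immunoprecipitates, so no value below has a replicate check. Whole seedlings mix green and non-green tissues, and the list gives no value by tissue.

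The data are 1 list of 14718 regions with more reads in the wild-type than in the lhy-21 library. Each region carries a score given by the authors, whose scale is not stated, from 2.00 to 213.1 with a median of 10.1. It is used here only to order and describe regions within this list. A gene was counted as having a region when the midpoint of one lay inside it or within 1000 bp of either end. The list holds no values for the single libraries, so neither the knock-out nor the tissue could be checked in it. Regions have no strand, and the gene table used here gives none, so the start and the end of a gene were not told apart. Positions are given in the TAIR9 build.

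Nearly all of these genes had an LHY region. There was one at 34 of the 36 (94.4%), against 43.2% of all nuclear protein-coding genes. The exceptions were PETC (AT4G03280), which encodes the Rieske iron-sulfur protein of the cytochrome complex, and PDE334 (AT4G32260), which encodes a membrane-sector subunit of the ATP synthase. All 13 genes of photosystem I and all 13 of photosystem II had a region, and 8 of the 10 genes for electron carriers and ATP synthase did. In all there were 44 distinct regions. A single region lay at each of 26 genes, 2 at each of 6 genes, and 3 at PSB27 and at ATPC1. Thus 8 of the 36 genes (22.2%) had 2 or more regions, against 14.8% of all genes.

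Scores were also high beside those at other genes with a region. Over the 34 genes the median of the highest score per gene was 29.8, with quartiles of 15.0 and 46.0. Over the 11856 genes with a region in the whole genome it was 14.2, with quartiles of 7.33 and 31.1. Of the 36 genes, 25 lay above that median and 16 above the upper quartile, against 5928 and 2963 of all 27444 genes. A region scored above the list median was found at 29 genes (80.6%), against 27.2% of all genes. A region among the strongest 10% of the list was found at 9 genes (25.0%), against 6.46% of all genes. The 1000 strongest regions, with scores of at least 58.0, reached 6 genes (16.7%), against 4.51% of all genes. These 6 were FNR2, PSB27, PSBTN, PSAE1, PSAN and PSAD1, and PSAL, ranked 1014, lay just below. The shares are descriptions of 1 list, and no test was run on them.

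**Figure D1:**
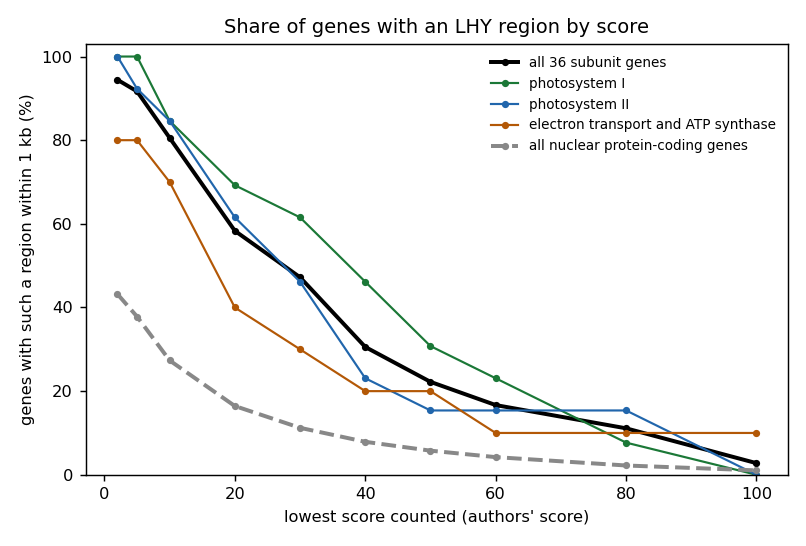
Percentage of genes with a region within 1000 bp that scores at least the value on the horizontal axis. The black line (all 36 genes) lies above the dashed line (all nuclear protein-coding genes) at each score drawn, from 94.4% against 43.2% at a score of 2 to 2.78% against 1.05%, or 1 gene of 36, at a score of 100.

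In photosystem I the median of the highest scores was 38.7, and 8 of the 13 genes lay above the upper quartile of all genes with a region. The highest scores were at PSAE1, PSAN and PSAD1, for subunits on the stromal and lumenal faces. PSAL followed with 57.6, above the other genes for subunits of these faces. PSAD and PSAE form the stromal ridge where ferredoxin docks, and each is encoded by a pair of genes. PSAE1 (AT4G28750) had a region of 540 bp at chr4:14203840-14204379 with a score of 85.8, ranked 366 of the list, and its midpoint lay 48.5 bp outside the gene and inside the neighbouring AT4G28755. PSAD1 (AT4G02770) had one of 420 bp at chr4:1229816-1230235 with a score of 68.3, ranked 693, centred 138.5 bp inside the gene. Their sister genes had scores of 47.4 for PSAD2 (AT1G03130, chr1:754044-754597) and 40.3 for PSAE2 (AT2G20260, chr2:8736444-8736833). All 4 scores were above the upper quartile of 31.1. However, the midpoint at PSAD2 fell inside AT1G03140 and that at PSAE2 was nearer to AT2G20250, so with each region counted for its nearest gene only, PSAD1 was the one gene of the 4 that had a region.

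On the lumenal side, PSAN (AT5G64040), a small subunit involved in the docking of plastocyanin, had a region of 711 bp at chr5:25629262-25629972. Its score was 77.7 and its midpoint lay 91.0 bp inside the gene. PSAF (AT1G31330), the main subunit for plastocyanin docking, had the widest region of all 36 genes, 1260 bp at chr1:11215561-11216820, with a score of 38.7. Width and score went together over the strongest regions of the 34 genes, with a Spearman correlation of 0.69. The points share 1 pair of libraries and the correlation is only a description. Wide regions still differed in score. FNR2, at 1100 bp, scored 103.6, while PSAF had 38.7, PETE1 27.5 at 844 bp and PSBS 19.9 at 782 bp.

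The subunits on the side of photosystem I where the mobile antenna binds during state transitions were spread widely. PSAL (AT4G12800), which also joins the complexes into larger assemblies in cyanobacteria, had a score of 57.6 for a region of 628 bp at chr4:7521009-7521636. A further region, at chr4:7522768-7522910, scored 7.55. PSAO (AT1G08380) had 31.7, and PSAH2 (AT1G52230) had 24.4 at chr1:19454604-19454935. PSAH1 (AT3G16140) had 17.8 at chr3:5470224-5470623, centred 829.5 bp outside the gene, and a further 11.3 at chr3:5469410-5469608, centred 85 bp inside it. PSAP (AT2G46820), whose product is also known as CURT1B, a protein that curves the edges of thylakoid stacks, had 14.0. Its region was centred 292 bp outside PSAP and 158 bp outside the clock gene CCA1, so it lay nearer to CCA1. The lowest scores were at PSAG (AT1G55670, 7.76) and PSAK (AT1G30380, 6.42), a related pair of subunits at the rim that holds the photosystem I antenna. These 2 were in the lowest 27% of all genes with a region.

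In photosystem II the median of the highest scores was 29.3, and 5 of the 13 genes lay above the upper quartile of all genes with a region. The strongest region lay not at a gene for a core subunit but at PSB27 (AT1G03600), an assembly and repair factor on the lumenal side, with a score of 99.9 for 653 bp at chr1:898272-898924. This region ranked 214 of the list and was centred 118 bp inside the gene. Both further regions of PSB27 were close to the list median of 10.1, at 10.8 and 8.46. PSB28 (AT4G28660), another assembly factor of photosystem II, had a score of 7.59 for the narrowest region of the set, 110 bp. The second strongest gene was PSBTN (AT3G21055), which encodes a very small lumenal subunit, with 87.1 for 669 bp at chr3:7376871-7377539. Its midpoint was 21 bp inside the gene and 186 bp outside the neighbouring gene RBL.

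The extrinsic proteins that shield the water-splitting manganese cluster all had regions of middling to high score. PSBP1 (AT1G06680) had 2 regions, centred 116 bp and 66.5 bp inside the gene, with scores of 42.1 (chr1:2049113-2049533) and 25.1 (chr1:2047489-2047912). PSBQ1 (AT4G21280) had 39.7 at chr4:11334105-11334459, centred 70 bp outside the gene, and PSBQ2 (AT4G05180) had 30.3 at chr4:2673133-2673583, centred 115 bp outside. PSBO1 had 19.6 and PSBO2 20.0. PSBR (AT1G79040), which helps to hold these proteins in place, had 22.5. PSBS (AT1G44575), the sensor of lumen acidity that triggers the dissipation of excess light as heat, had 19.9. Its region of 782 bp, at chr1:16871080-16871861, was the only one among the strongest regions of the 34 genes that lay deep inside a gene, 1249.5 bp from the nearer end. Of the small membrane subunits, PSBW (AT2G30570) had 35.8 and PSBX (AT2G06520) 29.3. PSBY (AT1G67740) had 2.71, the lowest value of the 34 genes, and 11573 of the 11856 genes with a region had at least that score.

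Between and beyond the photosystems the picture was mixed. The median of the highest scores was 20.7 over the 8 genes with a region, and only FNR2, FD2 and ATPC1 lay above the upper quartile of all genes with a region. With each region counted for its nearest gene only, 6 of the 10 genes had one, with a median of 31.3. That lay above the 29.3 of photosystem II under the same setting, so the order of the medians of these groups depended on how shared regions were assigned. PETC and PDE334 had no region at any distance up to 3000 bp. The region nearest to PETC, with a score of 8.08, was centred 3433 bp outside it, and that nearest to PDE334, with a score of 2.35, was 10851 bp away. The region farthest out among those counted was the stronger one of PSAH1, at 829.5 bp, so no gene was included or left out by a narrow margin of distance. This does not cover the score or the choice between neighbouring genes. A gene with no region in this list is not shown to be free of LHY, since the threshold of the peak calling and the read depth are not given in the sources used here.

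FNR2 (AT1G20020) had the highest score of the 36 genes. FNR transfers electrons from ferredoxin to NADP at the end of the chain. The region spanned 1100 bp at chr1:6942078-6943177, scored 103.6 and ranked 189 of the list, with its midpoint 2.5 bp inside an end of the gene. A further region of 580 bp, at chr1:6945028-6945607, lay 226.5 bp outside the other end and scored 76.1, but its midpoint was nearer to AT1G20030, at 107.5 bp. FNR2 was the only one of the 36 genes with 2 regions among the 1000 strongest. FNR1 (AT5G66190) had 12.7 for a region of 194 bp at chr5:26452991-26453184.

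Ferredoxin is the soluble carrier that takes electrons from photosystem I. FD2 (AT1G60950), listed as FED A in the gene table, encodes the main leaf ferredoxin and had a score of 50.0 for 717 bp at chr1:22444006-22444722. FD1 (AT1G10960), the minor leaf form, had 12.1 for 137 bp at chr1:3664011-3664147, and that midpoint fell inside the neighbouring gene TMN1. Plastocyanin carries electrons through the lumen. PETE1 (AT1G76100) had 2 regions of nearly equal score, one of 27.5 at chr1:28552723-28553566, centred 738.5 bp outside the gene, and one of 26.5 at chr1:28554658-28554927, centred 137.5 bp inside it. PETE2 (AT1G20340, DRT112 in the gene table), which encodes the more abundant plastocyanin, had 5.58 at chr1:7043340-7043625. Of the ATP synthase genes, ATPC1 (AT4G04640), for the central rotating subunit, had 35.1 and further regions of 5.31 and 2.08. ATPD (AT4G09650), for the subunit that links the stator to the catalytic head, had 14.0 and 7.64, both nearer to AT4G09649.

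Gene pairs that encode the same protein differed to unequal degrees. In 8 such pairs the gap between the scores ran from 0.37 for the PSBO genes to 90.8 for the FNR genes. FNR2 exceeded FNR1 by 103.6 to 12.7, PSAE1 exceeded PSAE2 by 85.8 to 40.3, and FD2 exceeded FD1 by 50.0 to 12.1. PETE1 and PETE2 had 27.5 and 5.58, PSAD1 and PSAD2 had 68.3 and 47.4, PSBQ1 had 39.7 and PSBQ2 30.3, and PSAH2 and PSAH1 had 24.4 and 17.8. For PSBO1 (AT5G66570, chr5:26568374-26568769) and PSBO2 (AT3G50820, chr3:18892262-18892675) the regions were alike also in width, at 396 and 414 bp. With the weaker gene of a pair at 12.1 (FD1), 12.7 (FNR1) or 5.58 (PETE2), 3 of the 8 pairs had one gene above and one below 14.2, the median for all genes that have a region. The other pairs had both genes above it. With a window of 500 bp PSAH1 had 11.3, below the 13.2 of all genes with a region, so that pair was split as well. With each region counted for its nearest gene only, PSAD2, PSAE1, PSAE2, PSAH2 and FD1 had no region. The PSAD, PSAE, PSAH and FD pairs could then not be compared. With 1 list, no error can be given for the differences within pairs.

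**Figure D2:**
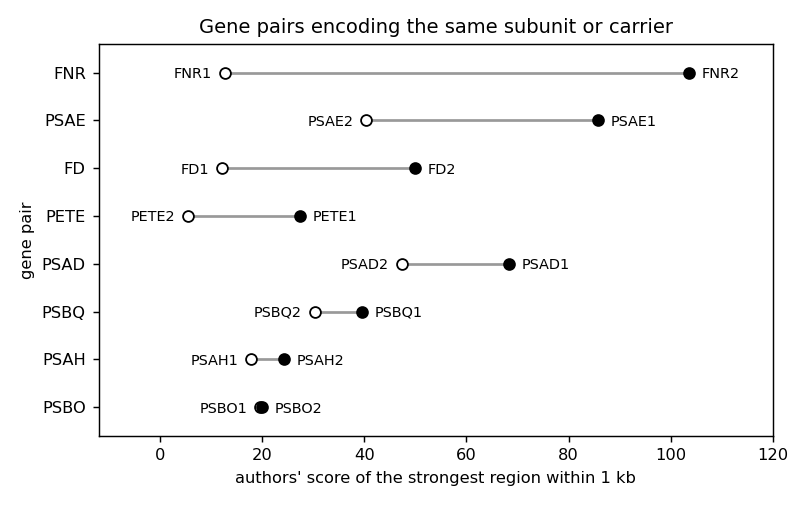
Authors' score of the strongest region within 1000 bp for both genes of each of 8 pairs, with the higher gene filled and the lower one open. The gap is widest for FNR (103.6 for FNR2 and 12.7 for FNR1) and narrowest for PSBO (20.0 for PSBO2 and 19.6 for PSBO1).

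The regions lay close to the ends of the genes. The midpoint of the strongest region was within 200 bp of a gene end at 29 of the 34 genes (85.3%), against 47.0% of all genes with a region. The median distance to the nearer end was 90.8 bp, against 222 bp over all genes with a region. The 5 genes outside this range were PSBS inside the gene, and ATPD, PSAP, PETE1 and PSAH1 at 238 to 829.5 bp outside. In 16 of the 34 genes (47.1%) the midpoint lay inside the gene, against 27.4% of all genes with a region. The share inside was 4 of 13 in photosystem I and 8 of 13 in photosystem II. The 36 genes are short, with a median of 1294 bp against 2078 bp over all genes. Among genes with a region in the same length range, from 720 to 3207 bp, 47.5% had the strongest one within 200 bp of an end and 26.5% had it inside. The median width was 420.5 bp, against 342 bp over all genes with a region.

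**Figure D3:**
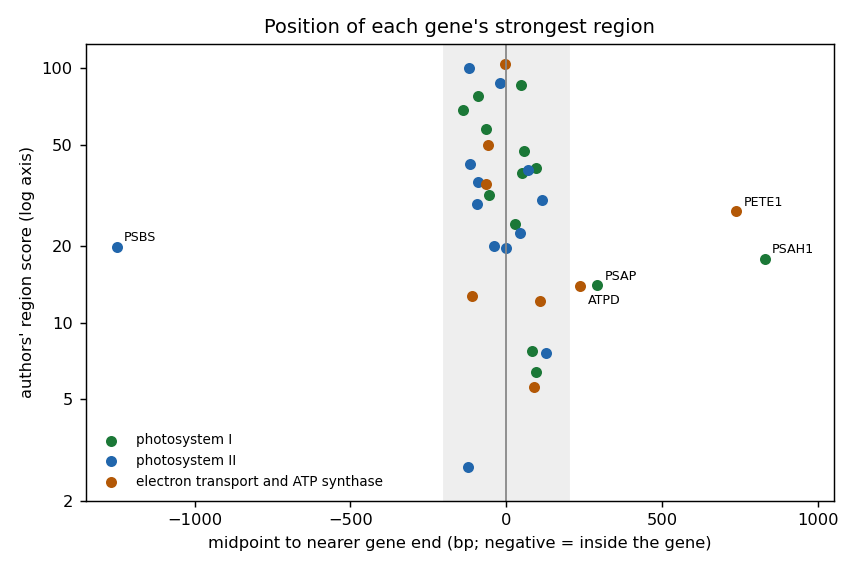
Distance of the midpoint of each gene's strongest region from the nearer gene end, in bp with negative values inside the gene, against the authors' score on a log axis. The shaded band marks 200 bp to either side of a gene end and holds 29 of the 34 genes, and the 5 others are named.

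The Arabidopsis genome is compact, and many regions were in reach of a neighbouring gene as well. This was so for the strongest region at 20 of the 34 genes (58.8%), against 62.1% of all genes with a region. The photosynthesis gene was the nearer one at 12 of the 20, and PSAG and its neighbour AT1G55673 were equally near. Another gene was nearer at PSAD2, PSAE1, PSAE2, PSAH2, PSAP, ATPD and FD1, and of these the midpoint lay inside the neighbour for PSAD2, PSAE1 and FD1. With each region counted for its nearest gene only, 27 of the 36 genes had one, against 32.6% of all genes. The count in photosystem I was then 8 of 13, while that in photosystem II was 13 of 13. The strongest region was in reach of no other gene at 14 genes, among them FNR2, PSAD1, PSAL, ATPC1, PSBQ2 and both PSBO genes. Of these 14, 11 (78.6%) had it within 200 bp of a gene end, against 45.7% of all genes whose strongest region is unshared.

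Other nuclear genes of the thylakoid were set beside the 36 genes in 4 lists, to be read against 43.2% of all genes with a region and a median highest score of 14.2. Of 20 genes for light-harvesting antenna proteins, 18 had a region, with a median of the highest scores of 39.1. The antenna genes without one were LHCA5 and LHCA6, which encode minor forms. The highest antenna scores, both 104.4, were at the neighbouring loci LHCB1.4 (AT2G34430) and LHCB1.5 (AT2G34420), so a shared region may count for both. With each region counted for its nearest gene only, 15 of the 20 antenna genes had one, against 32.6% of all genes. Of 12 genes for related proteins outside the 36, 9 had a region, with a median of 22.4, led by PSB33 (33.8) and by FD3 (30.0), a ferredoxin of non-green tissue. ATPC2, PSBP2 and RFNR1, a root form of FNR, had none. RFNR2, the other root form, had 2 regions, the stronger with a score of 23.0. Of 8 genes that regulate electron transport, 6 had a region, with a median of 34.3. The highest scores there were 75.6 at TAP38, the phosphatase that reverses state transitions, and 46.1 at NPQ1, the violaxanthin de-epoxidase. STN8, a kinase of photosystem II proteins, and PGR5, of cyclic electron flow, had none.

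Of 11 further genes for the assembly and repair of the complexes, a list without PSB27 and PSB28, 7 had a region. The exact 95% interval (Clopper-Pearson, counting error only) of this share, 30.8 to 89.1%, holds the 43.2% of all genes. So do the intervals of the related proteins (42.8 to 94.5%) and of the regulators (34.9 to 96.8%). The interval of the antenna genes is 68.3 to 98.8%, but it counts LHCB1.4 and LHCB1.5, which may share a region, as separate genes. All these intervals treat genes as independent, and the lists were chosen by hand with earlier results known. They are only descriptions, and whether one holds 43.2% is not a test. Over the 7 assembly and repair genes with a region, the median of the highest scores was 8.69. The highest were ALB3 (39.9), which inserts antenna proteins into the membrane, and FTSH5 (31.1), a protease subunit that degrades damaged photosystem II. PAM68, HCF101, Y3IP1 and THF1 had none. Regions among the strongest 10% were present at 9 of the 36 subunit genes, at 8 of 20 antenna genes and at 1 of 8 regulators. None of the 12 genes for related proteins and none of the 11 assembly genes had one, but at the 6.46% of all genes a count of 0 in lists this short is near the background. The differences between these lists were not tested.

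**Figure D4:**
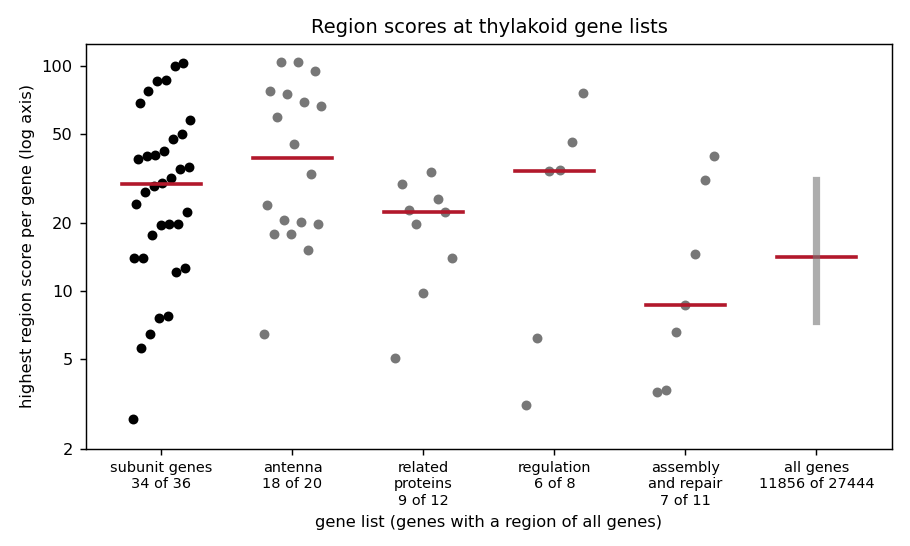
Highest region score per gene, on a log axis, for the genes with a region in the 36 subunit genes and in 4 other lists of thylakoid genes. Red lines are medians (29.8, 39.1, 22.4, 34.3 and 8.69 from left to right), and the last column gives the median (14.2) and the quartiles over all genes with a region.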

How the data were processed

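ChIP-seq was done on 1 wild-type and 1 lhy-21 library, each from 9 pooled immunoprecipitates of chromatin sheared to 100 to 1000 bp, per the labels' protocols. Bowtie, MACS2 2.0.10.09132012 and TAIR9 are named in the submitters' processing notes. The deposited score comes from the authors' peak calling. The sources used here give neither its scale nor the thresholds, read filters and read depth, and no counting interval could be made for the scores. Genes came from a RefSeq table of assembly TAIR10.1, which matched all 36 names. The nuclear chromosome sequence of both builds is the same, while gene models may differ. As a check, 44.1% of midpoints lay within 200 bp of a gene end, against 13.5 to 15.7% after shifts of 500 or 1000 bp.

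Midpoints were assigned to every gene within 1000 bp with Python 3.11.15 and pandas 2.3.3. The assignment was checked on artificial genes with known regions. There is 1 library per genotype, so nothing was tested. The genes and lists were chosen with earlier results of these data known. All 36 genes are accounted for, with position and score of the strongest region for the 12 highest scores and the 8 gene pairs. A planned motif search and a split by gene start were left out, because no sequence or strand was used here. Alternatives changed the window, the assignment, the score limit and the background.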

Additional observations from a re-analysis of the deposited data

How the results depend on the processing

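Of the 36 genes, 34 also had a region with windows of 500 and 3000 bp, with any overlap, and with regions within 200 bp merged. The share of all genes was 36.5% with 500 bp, 60.3% with 3000 bp and 45.0% with any overlap. The nearest gene only gave 32.6% of all genes, 8 genes of photosystem I and a median of 31.3 for the 10 carrier and ATP synthase genes, of which 6 had a region. Regions above the median score reached 27.2% of all genes, and 3 assembly and repair genes. Chosen after the data were seen, a background of genes in the same length range gave 43.2%, and one of genes with a symbol of their own gave 50.9%. The strongest 10% of regions reached 9 of the 36 genes (5 in photosystem I, 2 in photosystem II, 2 others) with 10 regions, and 6.46% of all genes. The medians were then 77.7 over the 9 genes and 93.5 in photosystem II. The list counts were 8 (antenna), 0 (related proteins), 1 (regulation) and 0 (assembly). The 1000 strongest reached 6 genes (3, 2 and 1) with 7 regions, and 4.51% of all genes. The medians were then 86.4 over the 6 genes, 77.7 in photosystem I and 93.5 in photosystem II, and the list counts 8, 0, 1 and 0. Both settings drop weaker regions by construction. Over 8 of these settings, 65 highest scores of single genes were lost with their region and 6 changed with another window. A score limit or merging cannot change the highest score of a gene that keeps a region, by construction. No paired analysis was possible because there is 1 library per genotype and no test. Restriction to the start side of genes and the motif search were not run.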

Other observations

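For 4 of the 36 genes a stronger region lay between 1000 and 3000 bp away, each with another gene nearer to it. PSBO1, the main gene for the protein that stabilises the manganese cluster, had 19.6 within 1000 bp. A region of 1217 bp at chr5:26571470-26572686, centred 1617 bp outside PSBO1 and 187 bp outside AT5G66580, scored 68.3 and ranked 695 of the list. PSBX had 29.3 within 1000 bp, and a region at chr2:2590186-2590727 that scored 59.9 was centred 2008.5 bp from it, inside VPS2.1. For PSAK the value was 18.0 at 1211.5 bp, nearest to DLAH, in place of 6.42. For PETE2 it was 9.49 at 1862 bp, inside SMT2, in place of 5.58. Which gene such a region acts on was not tested.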
